A study of Homo sapiens with 6 samples.

Results

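The cadherin and protocadherin genes were taken as every protein-coding gene of the count table whose symbol is CDH followed by a digit or starts with PCDH, which gave 89 of 60664 genes. They were divided into 18 classical cadherins, 5 other CDH genes, 13 non-clustered protocadherins, 15 genes of the PCDHA cluster, 16 of the PCDHB cluster and 22 of the PCDHG cluster. The RNA came from U-2 OS cells, an osteosarcoma cell line with a polyploid genome, that received either a control siRNA (siControl, 3 libraries) or siRNA against SFPQ (siSFPQ, 3 libraries), delivered by lipofection at 30 nM. Both groups are transient transfections of 1 cell line, and the time of harvest is not given in the sources used here. The study's reporting summary calls the libraries of a group biological triplicates, but gives no further detail of the cultures, so the p-values measure the spread between these 3 libraries. SFPQ is a nuclear RNA- and DNA-binding protein that takes part in transcription, splicing and the response to R-loops, and the comparison asks which transcripts change when it is depleted.

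Cadherins are calcium-dependent adhesion receptors. Classical cadherins bind a partner on the neighbouring cell and are held to the actin cytoskeleton by catenins at adherens junctions, and N-cadherin and the osteoblast cadherin CDH11 are known in mesenchymal and bone-forming cells. Protocadherins lack the catenin-binding tail: the non-clustered ones are divided into a delta-1 and a delta-2 class by their cytoplasmic motifs, while the clustered ones lie in 3 tandem arrays and are best known for giving neurons a surface identity. In the PCDHA and PCDHG clusters each variable first exon has its own promoter and is spliced to shared constant exons, and the last variable exons of these arrays, named C-type, are regulated differently from the alternate ones.

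The targeted gene, SFPQ, was at 22338, 23139 and 21753 counts in siControl against 3140, 3863 and 3151 in siSFPQ, so that its log2 fold change was -2.73 ± 0.05 (SE; adjusted p = 6.33e-30) and the groups did not overlap. Library totals lay between 43469321 and 47119203 counts. With a library's counts scaled to 1000000 in total (CPM), 3 counts, taken as the floor, correspond to 0.0637 to 0.069 CPM. The CPM of genes were scaled by the total multiplied by the library's normalisation factor, which lay between 0.971 and 1.027. Counting error is all this floor covers, since reads were counted and not molecules. Of 7 mesenchymal and osteoblast-lineage markers, 5 exceeded 10 CPM in at least 1 library, and their summed level was 7746 to 8353 CPM in siControl and 6704 to 6817 in siSFPQ, while COL1A2 stayed at 0.679 to 1.19 CPM. VIM went against the sum, with 923 to 925 CPM in siControl and 1130 to 1171 in siSFPQ.

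Promoter sequences of the clustered genes are shown first, because it is the choice of promoter that decides which of these genes is read. RefSeq promoters (GRCh38.p14, 250 bases before to 50 after the start) were found for 47 of the 53 clustered genes and for 70 of the 89 genes. The 6 clustered genes without one were PCDHA3, PCDHA13, PCDHB6, PCDHB11, PCDHGA12 and PCDHGC5. The windows below, from the forward strand of chromosome 5, end at or before the annotated start. Capitals mark the letters CGCT, which form the core of a conserved element known from many, but not all, promoters of these clusters. A match of these letters does not show that the element is there, and PCDHAC2 is known as a gene without it:
PCDHA4, chr5:140806967-140807026: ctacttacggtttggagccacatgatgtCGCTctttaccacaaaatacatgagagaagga
PCDHA6, chr5:140827885-140827944: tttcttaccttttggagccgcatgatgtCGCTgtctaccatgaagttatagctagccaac
PCDHAC1, chr5:140926208-140926267: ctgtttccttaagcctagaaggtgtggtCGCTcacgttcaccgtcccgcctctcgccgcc
PCDHAC2, chr5:140966353-140966412: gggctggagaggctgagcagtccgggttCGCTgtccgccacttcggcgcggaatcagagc
PCDHB5, chr5:141135167-141135205: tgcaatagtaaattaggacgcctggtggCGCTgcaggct
PCDHB16, chr5:141182298-141182357: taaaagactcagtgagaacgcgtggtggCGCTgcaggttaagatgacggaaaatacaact
PCDHGB4, chr5:141387605-141387664: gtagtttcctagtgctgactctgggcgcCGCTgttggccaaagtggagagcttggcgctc
PCDHGB5, chr5:141397851-141397910: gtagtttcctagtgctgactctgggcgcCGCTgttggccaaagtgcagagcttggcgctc
PCDHGA10, chr5:141412919-141412978: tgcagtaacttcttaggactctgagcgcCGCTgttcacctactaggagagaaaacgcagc
PCDHGC3, chr5:141475868-141475927: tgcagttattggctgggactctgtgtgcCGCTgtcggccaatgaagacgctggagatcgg

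The CGCT core by itself is common, since 70.0% of 35116 RefSeq promoters of this length held it on either strand. Longer strings that contain it were chosen after these promoters had been read, so how they fall among the clusters is a description fixed by that choice. GGTGGCGCT was found in 13 of 14 PCDHB promoters, in none of the 13 PCDHA and 20 PCDHG promoters, and in 0.501% of all promoters, and PCDHB1 was the PCDHB gene without it. TGTCGCT was found in 10 of 13 PCDHA promoters, in 1 PCDHB and 3 PCDHG promoters and in 1.76% of all promoters. The PCDHA promoters without it were those of PCDHA9, PCDHAC1 and PCDHAC2. CGCTGT, which can overlap TGTCGCT, was found in 17 of 20 PCDHG promoters, 7 PCDHA promoters, 1 PCDHB promoter and 11.2% of all promoters. PCDHGB4 and PCDHGB5, whose windows above are the same at 59 of 60 bases, also share transcribed sequence, as given with the limits of the counts.

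Of the 89 genes, 84 had at least 10 counts in total and were tested together with all other genes, 29022 in all. CDH9, CDH16, CDH17, PCDH20 and PCDHA1 were not tested, with at most 5 counts in any library. At an adjusted p under 0.05, 47 genes were lower in siSFPQ and 11 were higher, and 26 did not pass. Over all genes tested, 22.1% were lower and 22.4% higher. With the study's further threshold, a log2 fold change over 1.5 or under -1.5, 11 genes were called lower and 3 called higher, against 4.77% and 5.54% of all genes. The median log2 fold change was -0.71, and that of all genes tested was 0.02. All 3 siSFPQ libraries lay below all 3 siControl libraries for 49 genes and above them for 10, which was the case for 25.4% and 26.9% of all genes tested.

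A mean of at least 1 CPM was reached by 53 genes. Of these, 38 were lower and 6 higher, beside 34.5% and 30.1% of the 15641 genes at that level, and 9 were called lower and 1 called higher, beside 4.15% and 1.77%. The summed normalised count of all 89 genes was 38793 ± 1081 in siControl and 22328 ± 195 in siSFPQ (SD, n = 3), or 57.6% of the control level, without overlap. For a single sum over 3 against 3 libraries an exact two-sided permutation test cannot give a p under 0.1, so sums are given here as values and not as tests. In a bulk sample, fewer cells expressing a gene and less RNA per cell cannot be told apart. The plot of normalised counts by library shows the most abundant and the called genes.

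**Figure D1:**
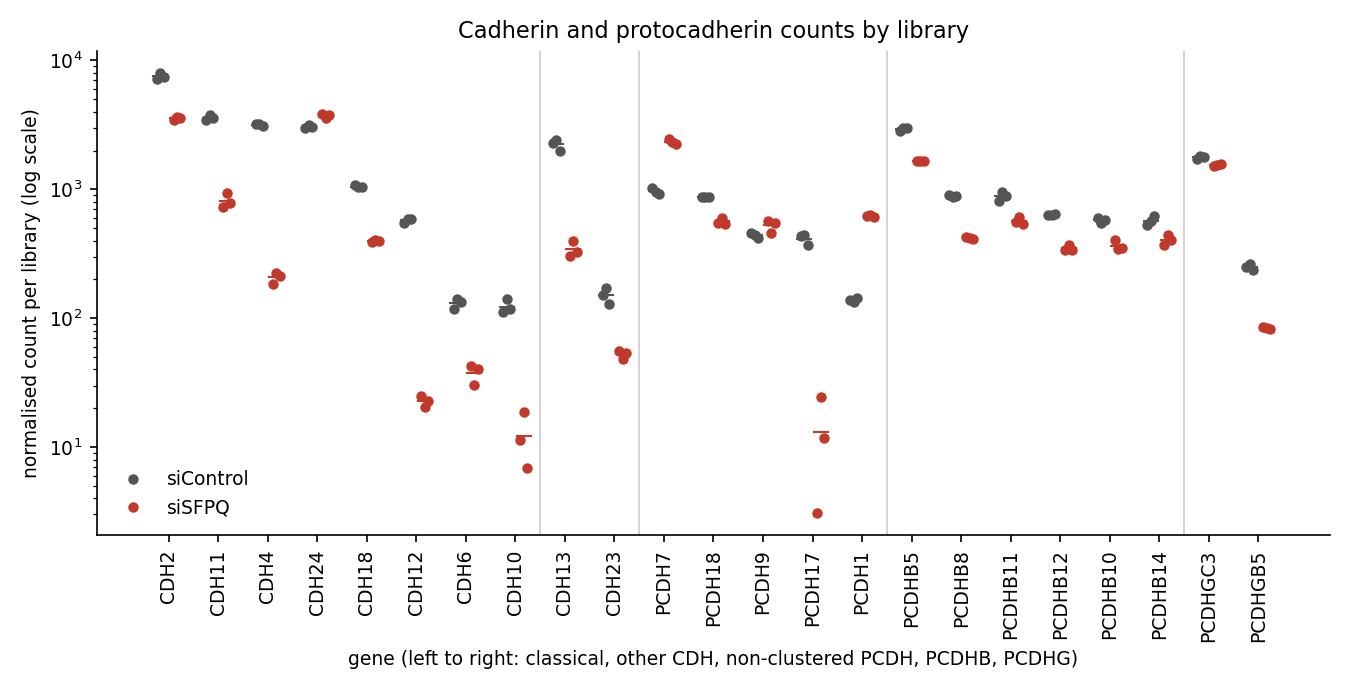
Normalised counts of cadherin and protocadherin genes with a mean of at least 10 CPM, or called with a mean of at least 1 CPM, in each of the 3 siControl (grey) and 3 siSFPQ (red) libraries, on a log axis with short lines at the means. The groups overlap for PCDH9 only among the genes plotted, CDH24, PCDH7 and PCDH1 lie higher in siSFPQ, and CDH12 and PCDH17 lie lowest against their controls.

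CDH2 and CDH24 were the classical cadherins with the highest levels in siControl, at 19.2 and 17.9 CPM per kilobase of exonic sequence that no other gene shares on the same strand, followed by CDH4 at 9.25, CDH11 at 6.05 and CDH18 at 3.53. In siSFPQ, CDH24 stood first at 21.8 CPM per kilobase, CDH2 was at 9.09 and CDH4 at 0.60. Of the 17 classical cadherins tested, 7 were lower and 4 higher, with 5 called lower and 1 called higher, and the median log2 fold change was -0.29. The shares that were higher and called higher, 23.5% and 5.88%, were near the 22.4% and 5.54% of all genes tested. Those that were lower and called lower were 41.2% and 29.4%, beside 22.1% and 4.77%. The summed normalised count of the class was 19548 ± 670 in siControl and 9126 ± 106 in siSFPQ (SD, n = 3), or 46.7% of the control.

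Among the type I cadherins, CDH2 (N-cadherin), the main cadherin of mesenchymal cells, at chr18:27932879-28177946 (GRCh38), had 7131, 8024 and 7426 counts in siControl and 3355, 3745 and 3636 in siSFPQ. Each siSFPQ library was thus below each control, with a log2 fold change of -1.08 ± 0.04 (SE; adjusted p = 1.25e-20). CDH4 (R-cadherin, first described in retina), which spans 688 kb of chromosome 20 (chr20:61252261-61940617), had 3204, 3204 and 3118 counts in siControl and 179, 229 and 215 in siSFPQ. It was 15.3-fold lower, a log2 fold change of -3.94 ± 0.07 (adjusted p = 8.67e-31), and its share of the counts of the classical cadherins went from 15.8 to 16.9% in siControl to 2.05 to 2.44% in siSFPQ. CDH2, in contrast, made up 37.7 to 39.6% of these counts in siControl and 38.4 to 39.8% in siSFPQ, ranges that overlap.

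CDH1 (E-cadherin), the junctional cadherin of epithelia, was low in this line, with 30, 66 and 55 counts in siControl and 92, 73 and 92 in siSFPQ, so that the groups did not overlap. Its log2 fold change was 0.76 ± 0.23 (adjusted p = 0.00719), and 0.50 (adjusted p = 0.0557) without siControl replicate 1. Of 5 epithelial markers, with a summed level of 13.4 to 15.8 CPM in siControl and 33.3 to 35.5 in siSFPQ, CLDN4 alone carried the difference, at 8.15 to 9.59 against 27.8 to 31.1 CPM. EPCAM, at 4.796 to 5.64 against 3.99 to 4.88 CPM, was not higher, and KRT19, CLDN7 and ESRP1 were under 0.5 CPM in every library. The part of these markers in the CDH1 result was not tested. CDH15 (M-cadherin of muscle) averaged 59.4 ± 13.7 and 52.5 ± 8.1 normalised counts and CDH3 (P-cadherin) was at 0 to 7 counts, and neither passed the test.

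The type II cadherins held the widest range. CDH11 (OB-cadherin, named for osteoblasts), at chr16:64943753-65126112, had 3462, 3758 and 3579 counts in siControl and 702, 958 and 799 in siSFPQ. It was 4.41-fold lower, with a log2 fold change of -2.14 ± 0.06 (adjusted p = 1.61e-24) and no overlap. CDH24, a short gene of 10.5 kb on chromosome 14 whose product also binds catenins, had 2986, 3155 and 3031 counts in siControl and 3731, 3648 and 3839 in siSFPQ. All its siSFPQ libraries were above the controls, by 0.29 ± 0.04 on the log2 scale (adjusted p = 9.79e-07), or 1.22-fold.

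The type II genes on the short arm of chromosome 5 were CDH18, CDH12, CDH10, CDH9 and CDH6. The 4 of these 5 that were expressed were all lower, beside 22.1% of all genes tested. Their summed normalised count was 1877 ± 25.2 in siControl and 471 ± 0.4 in siSFPQ (SD, n = 3), or 25.1% of the control. CDH12 (brain cadherin, 1103 kb) had 550, 589 and 590 counts in siControl and 24, 21 and 23 in siSFPQ, a log2 fold change of -4.67 ± 0.14 (adjusted p = 6.37e-24). That was 25.4-fold lower, the largest fall among the cadherins tested, and no siSFPQ library came near a control. CDH18, its neighbour with a span of 1105 kb, had 1070, 1033 and 1030 counts against 380, 410 and 406, a log2 fold change of -1.39 ± 0.07 (adjusted p = 2.14e-17), which is short of the fold threshold. CDH10, a cadherin of neurons, had 111, 140 and 118 counts against 11, 19 and 7 (-3.31 ± 0.27, adjusted p = 1.74e-12). For CDH6 (K-cadherin, known from fetal kidney) the counts were 118, 141 and 133 against 41, 31 and 41 (-1.79 ± 0.20, adjusted p = 1.93e-09). In none of these 4 genes did the groups overlap. CDH9 had 1 count in 1 library and 0 in the others. This chromosome arm was not one of the groups set out at the start. On the long arm of chromosome 16, of 7 CDH genes tested, 2 were lower, 2 were higher and 3 did not pass. The part of chromosome position in these results was not tested.

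Other type II genes were scarce. CDH20 had 0, 3 and 1 counts in siControl and 20, 15 and 22 in siSFPQ, so that it was at least 6.32-fold higher against a floor of 3 counts in each control library (adjusted p = 6.83e-05). CDH5 (VE-cadherin), the cadherin of endothelial junctions, had 10, 10 and 15 counts against 23, 42 and 28 (log2 fold change 1.39 ± 0.39, adjusted p = 0.0038). It did not pass without siSFPQ replicate 2 (1.11, adjusted p = 0.0617). The 5 endothelial markers summed to 4.62 to 6.48 CPM in siControl and 3.40 to 3.70 in siSFPQ, a difference that came mostly from CLDN5 and TEK, while the levels of PECAM1 and KDR overlapped between the groups and were under 1 CPM. Their part in the CDH5 result was not tested. CDH8, found mainly in neurons, averaged 101.5 ± 28.3 and 83.1 ± 5.0 normalised counts and did not pass (log2 fold change -0.29, 95% interval -0.66 to 0.09), although it did without siControl replicate 2 (-0.50, adjusted p = 0.0245). CDH7, CDH19 and CDH22 did not pass either.

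The summed normalised count of the CDH genes outside the classical class was at 17.3% of the control, and CDH13 made up most of this sum. CDH13 (T-cadherin), which is tethered to the membrane by a lipid anchor in place of a cytoplasmic tail, spans 1174 kb of chromosome 16 (chr16:82626965-83800640). It had 2266, 2414 and 1991 counts in siControl and 294, 408 and 332 in siSFPQ, without overlap, and was 6.48-fold lower (log2 fold change -2.70 ± 0.08, adjusted p = 2.46e-24). CDH23, a part of the tip links of inner ear hair cells, had 151, 170 and 129 counts against 54, 49 and 54 (-1.52 ± 0.17, adjusted p = 5.99e-09). It no longer met the fold threshold without siControl replicate 2 (-1.42) or without siSFPQ replicate 2 (-1.48), or with library size alone as normalisation (-1.46). CDH26, a cadherin of epithelia, had 10, 1 and 3 counts against 19, 17 and 10, which overlap, and its call as higher (1.69 ± 0.64, adjusted p = 0.0296) was lost with DESeq2 (adjusted p = 0.0593). It was also lost when siControl replicate 2 or 3 or siSFPQ replicate 1 or 2 was left out, with adjusted p values from 0.0922 to 0.149.

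The summed normalised count of the non-clustered protocadherins was higher in all siSFPQ libraries, at 3055 ± 151 in siControl and 4345 ± 121 in siSFPQ (SD, n = 3), or 142% of the control. Without PCDH7 the sum was 2091 ± 107 in siControl and 2001 ± 7 in siSFPQ, or 95.7%, which overlap. This remainder held both rises and falls. In mean normalised counts, PCDH1 went from 139 in siControl to 616 in siSFPQ and PCDH9 from 440 to 526. PCDH17 went from 414 to 13.1 and PCDH18 from 870 to 563. Of 12 genes tested, 6 were higher and 4 lower, with 1 called higher and 2 called lower, and the median log2 fold change was -0.19. The shares higher and lower were 50% and 33.3%, beside 22.4% and 22.1% of all genes tested. Those called higher and lower were 8.33% and 16.7%, beside 5.54% and 4.77%. In the delta-1 class 4 of 5 genes were higher and none lower, with a sum at 221% of the control (189.8% without PCDH7), and in the delta-2 class 3 of 5 were lower and 1 higher, with a sum at 47.9%. The difference between these classes was not tested.

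In the delta-1 class, PCDH7, whose tail binds protein phosphatase 1, lies at chr4:30720369-31146805 and had 1016, 945 and 924 counts in siControl and 2387, 2386 and 2266 in siSFPQ. All siSFPQ libraries were above the controls, with a log2 fold change of 1.28 ± 0.06 (adjusted p = 1.06e-19), or 2.43-fold. PCDH1, a protocadherin of airway epithelium, lies beyond the PCDHG cluster on chromosome 5 (chr5:141853090-141879246) and had 139, 133 and 144 counts against 598, 640 and 614. It was 4.43-fold higher without overlap (2.15 ± 0.10, adjusted p = 6.87e-19), and was the one gene with a mean of at least 1 CPM that was called higher. PCDH9, which is expressed mainly in brain, had 461, 441 and 415 counts against 554, 471 and 552, and the groups overlapped after normalisation. Its log2 fold change of 0.26 ± 0.09 (adjusted p = 0.0186) lost significance when siControl replicate 3 (adjusted p = 0.0743), siSFPQ replicate 1 (0.119) or siSFPQ replicate 3 (0.0715) was left out. PCDH11X, its X-linked relative, averaged 97.8 ± 21.2 and 145.6 ± 10.1 normalised counts (0.57 ± 0.16, adjusted p = 0.00357). Reads of PCDH11X may be shared with its near-identical copy PCDH11Y, which did not pass the test.

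In the delta-2 class, of which several members bind the WAVE actin-regulating complex, PCDH17 showed the largest fall of the 84 genes tested. It had 431, 444 and 366 counts in siControl and 3, 25 and 12 in siSFPQ, the latter being widely spread but all far below the controls. The log2 fold change was -4.95 ± 0.22 (adjusted p = 2.91e-19), or 30.9-fold lower. PCDH18 had 875, 865 and 867 counts against 528, 616 and 548 (-0.63 ± 0.07, adjusted p = 6.89e-09), also without overlap. PCDH19, a partner of N-cadherin in neurons, had 17, 9 and 14 counts against 5, 0 and 3 (-2.27 ± 0.74, adjusted p = 0.012), and was not past the test without siSFPQ replicate 2 (adjusted p = 0.0672). Below 1 CPM, PCDH8 and the endothelial PCDH12 were higher, PCDH15, which pairs with CDH23 in tip links, was lower, and PCDH10 did not pass.

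**Figure D2:**
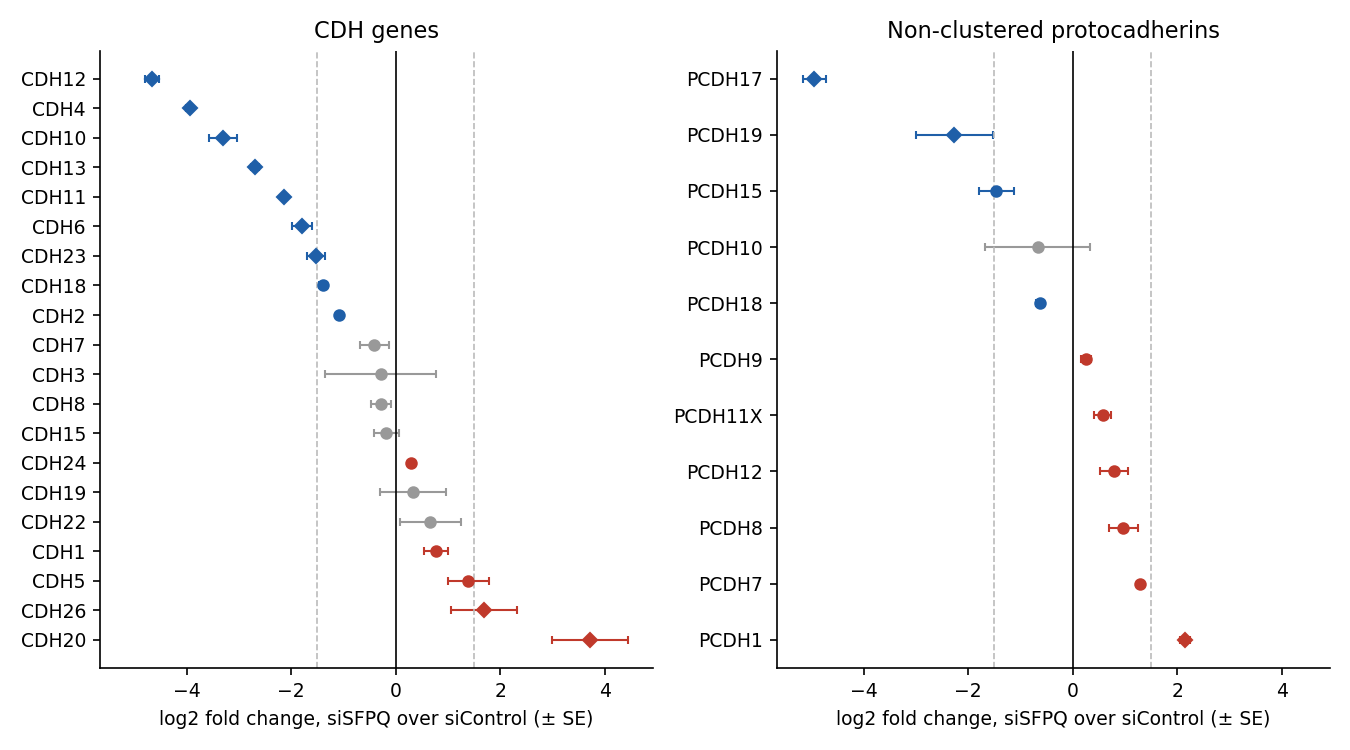
Log2 fold change of siSFPQ over siControl (± SE, 3 libraries per group) for the CDH genes and the non-clustered protocadherins tested, PCDH11Y left out. Blue marks genes that were lower and red those that were higher at an adjusted p under 0.05, grey those not past it, and diamonds those also past the dashed lines at 1.5 and -1.5. The fitted value of CDH20 rests on control counts at the floor and gives no fold. PCDH17 and CDH12 lie farthest left, while PCDH1 and PCDH7 lie right of 0.

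In the clusters on chromosome 5, 34 of the 52 genes tested (65.4%) were lower and none was higher. Of all genes tested, 22.1% were lower and 22.4% higher. In the clusters, 48 genes had a negative log2 fold change, and the median of those tested was -0.79. The summed normalised count of the clusters was 13807 ± 294 in siControl and 8445 ± 92 in siSFPQ (SD, n = 3), or 61.2% of the control. With edgeR, PCDHAC1 was higher at an unadjusted p under 0.05 and no other gene of the clusters was, and with DESeq2 none was higher at an adjusted p under 0.05. At the fold threshold, 0 PCDHA genes, 0 PCDHB genes and 2 PCDHG genes were called lower, both by adjusted and by unadjusted p, and 0, 0 and 3 with DESeq2. The 2 genes called with edgeR were 3.85% of the clustered genes tested, near the 4.77% of all genes tested. The per-library sums of each cluster did not overlap between the groups.

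**Figure D3:**
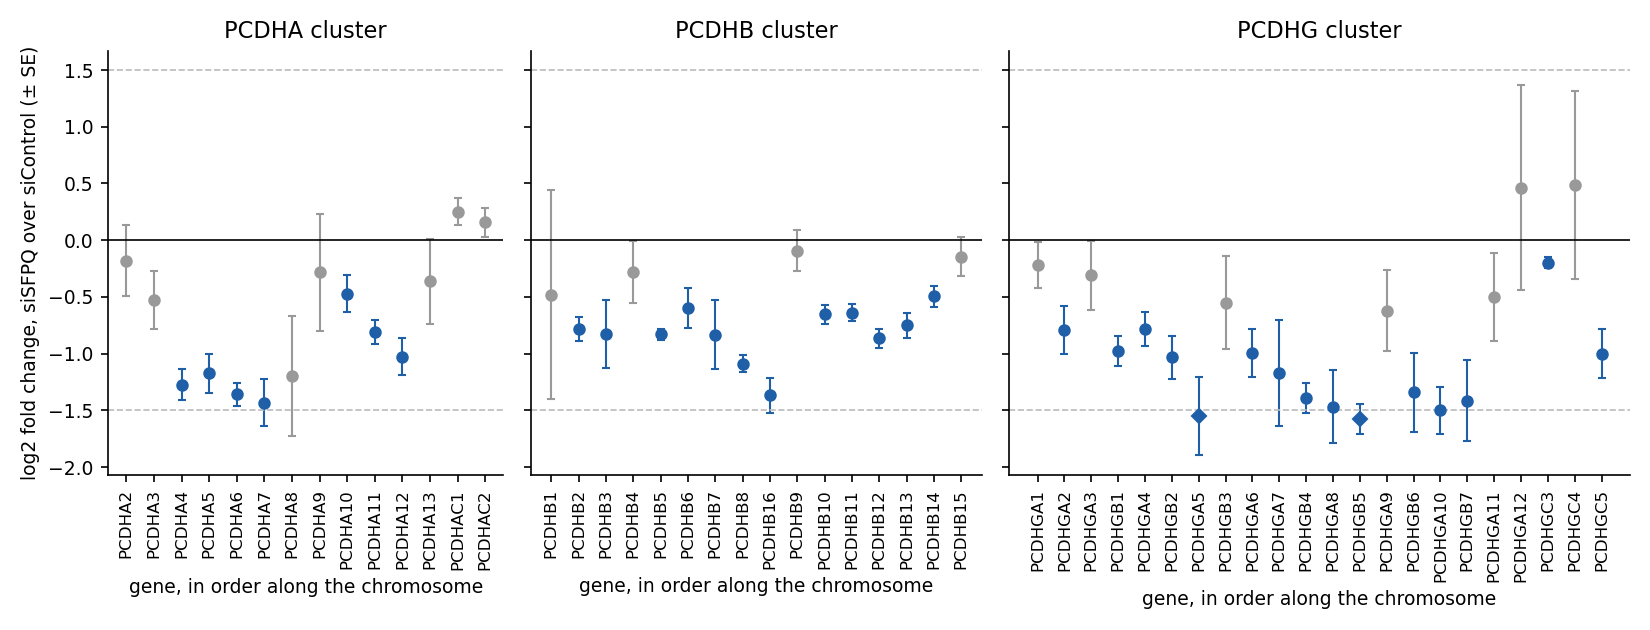
Log2 fold change of siSFPQ over siControl (± SE, 3 libraries per group) for the clustered protocadherins tested, in order along the chromosome. Blue marks genes lower at an adjusted p under 0.05, grey those not past it, and diamonds the 2 called genes, PCDHGA5 and PCDHGB5, and dashed lines mark 1.5 and -1.5. All 16 PCDHB genes lie below 0, and PCDHAC1 and PCDHAC2 lie above it.

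The PCDHB genes, which lack shared constant exons, had the largest summed count of the clusters. PCDHB5 stood at 18.9 CPM per kilobase in siControl and 10.6 in siSFPQ, beside 19.2 and 9.09 for CDH2, whereas PCDHB4, the least abundant of the 13 PCDHB genes with a mean of at least 1 CPM, stood at 0.30 in siControl. Of 16 genes, 12 were lower, and the summed normalised count was 7977 ± 203 in siControl and 4675 ± 76 in siSFPQ (SD, n = 3), or 58.6% of the control. The median log2 fold change was -0.70. PCDHB5, at chr5:141135206-141138615, had 2853, 3011 and 2970 counts in siControl and 1600, 1702 and 1684 in siSFPQ. The groups did not overlap, and the log2 fold change was -0.83 ± 0.05 (adjusted p = 1.07e-16). Its share of the PCDHB counts was 36.9 to 37.0% in siControl and 35.1 to 36.2% in siSFPQ.

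PCDHB8 had 908, 869 and 888 counts against 411, 425 and 420 (-1.09 ± 0.07, adjusted p = 2.79e-14). PCDHB12 had 630, 631 and 636 against 327, 376 and 343 (-0.86 ± 0.08, adjusted p = 1.17e-10). PCDHB11 had 811, 954 and 886 against 537, 628 and 544 (-0.64 ± 0.08, adjusted p = 1.68e-08). In each of these genes, all siSFPQ libraries were below the controls, and the same held for the next 2 genes. PCDHB10 had 595, 545 and 579 counts against 389, 349 and 356 (-0.66 ± 0.09, adjusted p = 1.28e-07), and PCDHB14 had 529, 563 and 622 against 360, 450 and 410 (-0.50 ± 0.09, adjusted p = 1.75e-05). The largest fall of the cluster was that of PCDHB16, from 192 ± 7.8 to 74.4 ± 12.4 normalised counts (-1.37 ± 0.15, adjusted p = 3.33e-09). PCDHB2 (-0.78), PCDHB13 (-0.75) and PCDHB6 (-0.60) were also lower, as were PCDHB3 and PCDHB7 below 1 CPM, and PCDHB6 did not pass without siControl replicate 3 (adjusted p = 0.062). PCDHB9 (95% interval of the log2 fold change -0.45 to 0.26), PCDHB15 (-0.48 to 0.19), PCDHB4 (-0.82 to 0.26) and PCDHB1 did not pass. PCDHB9 stood between PCDHB16 and PCDHB10 along the chromosome and held the GGTGGCGCT string as well.

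The PCDHA cluster, whose 15 genes join the same constant exons, summed to 2245 ± 34 normalised counts in siControl and 1358 ± 56 in siSFPQ (SD, n = 3), or 60.5% of the control. Reads in the constant exons fall on all genes of the cluster. How the counting treated them is not given in the sources used here, and they were taken as assigned to no single gene, an assumption on which the PCDHA and PCDHG counts per kilobase rest. Between 43.4 and 78.6% of the exonic bases of a PCDHA gene were its own. Of 14 genes tested, 7 were lower, all of them alternate genes, and the alternate genes together were at 49.3% of the control. PCDHA6, the most abundant alternate gene at 3.34 CPM per kilobase in siControl, had 505, 459 and 530 counts in siControl and 180, 226 and 178 in siSFPQ. Its groups did not overlap, with a log2 fold change of -1.36 ± 0.11 (adjusted p = 6.48e-13). PCDHA7 (-1.43 ± 0.20, adjusted p = 3.99e-07), PCDHA4 (-1.27 ± 0.13, adjusted p = 8.70e-10) and PCDHA5 (-1.17 ± 0.17, adjusted p = 5.60e-07), which lie close by, were lower as well. PCDHA12 (-1.03 ± 0.16), PCDHA11 (-0.81 ± 0.10) and PCDHA10 (-0.47 ± 0.16, adjusted p = 0.0181) completed the genes that were lower. PCDHA10 lost significance with DESeq2 (adjusted p = 0.0555) and without siControl replicate 3 (0.0656), siSFPQ replicate 1 (0.0504) or siSFPQ replicate 2 (0.0553). PCDHA3 averaged 57.1 ± 18.1 and 39.6 ± 3.0 normalised counts and did not pass (adjusted p = 0.0952), although it did without siControl replicate 1 (adjusted p = 0.0112). PCDHA2, PCDHA8, PCDHA9 and PCDHA13, all under 1 CPM, did not pass.

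Neither of the C-type genes at the end of the PCDHA array passed the test. PCDHAC1 had 207, 225 and 187 counts in siControl and 207, 259 and 273 in siSFPQ, which overlap after normalisation, with a log2 fold change of 0.25 ± 0.12 (95% interval 0.02 to 0.48, adjusted p = 0.0911). PCDHAC2 had 159, 188 and 169 against 190, 203 and 184, overlapping as well, with 0.16 ± 0.12 (95% interval -0.09 to 0.40, adjusted p = 0.337). Together both C-type genes made up 16.01 to 18.1% of the PCDHA counts in siControl and 31.5 to 33.0% in siSFPQ. PCDHAC1 passed as higher without siSFPQ replicate 1 (0.35, adjusted p = 0.0356) and with library size alone as normalisation (0.31, adjusted p = 0.0323). As in the windows above, both promoters lacked the TGTCGCT string that 10 of the 13 PCDHA promoters held. PCDHA9, which did not pass either, lacked it too. PCDHA2 and PCDHA8 held it and did not pass, while PCDHA6 and PCDHA7 held it and were lower. The part of this string in these results was not tested.

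PCDHG genes also share constant exons, with 35.6 to 72.5% of a gene's exonic bases its own. Of 22 tested, 15 were lower, 2 of them called, and the median log2 fold change was -0.99, while the summed normalised count was 3585 ± 104 in siControl and 2412 ± 13 in siSFPQ (SD, n = 3), or 67.3% of the control. The alternate genes alone were at 47.5% of the control, the PCDHGA subfamily at 55.0% and the PCDHGB subfamily at 41.9%. PCDHGB5 had 251, 265 and 234 counts in siControl and 83, 86 and 83 in siSFPQ, with no overlap (-1.58 ± 0.13, adjusted p = 7.73e-12). PCDHGA5 had 46, 75 and 35 counts against 25, 9 and 19 (-1.55 ± 0.35, adjusted p = 3.52e-04), and its change was under the fold threshold without siControl replicate 2 (-1.19) or siSFPQ replicate 2 (-1.24), or with library size alone (-1.49). PCDHGA10, 2.83-fold lower (SE 0.21 on the log2 scale, adjusted p = 2.13e-07), fell just short of the threshold and was past it with DESeq2 (adjusted p = 3.93e-08). It was also past it when siControl replicate 1 (-1.59), siControl replicate 3 (-1.52) or siSFPQ replicate 2 (-1.59) was left out.

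PCDHGB4 (-1.39), PCDHGB2 (-1.03), PCDHGA6 (-0.996), PCDHGB1 (-0.98), PCDHGA2 (-0.79) and PCDHGA4 (-0.79) were lower as well, as were PCDHGA7, PCDHGA8, PCDHGB6 and PCDHGB7 below 1 CPM. PCDHGA1 did not pass (-0.22, 95% interval -0.62 to 0.18), nor did PCDHGA3, PCDHGB3, PCDHGA9, PCDHGA11, PCDHGA12 and PCDHGC4 below 1 CPM. Among the C-type genes, PCDHGC3, the most abundant gene of the cluster at 11.9 CPM per kilobase in siControl and 10.4 in siSFPQ, had 1710, 1810 and 1781 counts against 1475, 1582 and 1581. Its groups did not overlap, but the fall was small, at -0.20 ± 0.05 on the log2 scale (adjusted p = 0.00158), or 1.15-fold. PCDHGC3 thus made up 48.1 to 51.1% of the PCDHG counts in siControl and 62.7 to 64.8% in siSFPQ. PCDHGC5 fell from 85.5 ± 7.6 to 42.7 ± 6.9 normalised counts (SE of the log2 fold change 0.21, adjusted p = 2.05e-04).

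**Figure D4:**
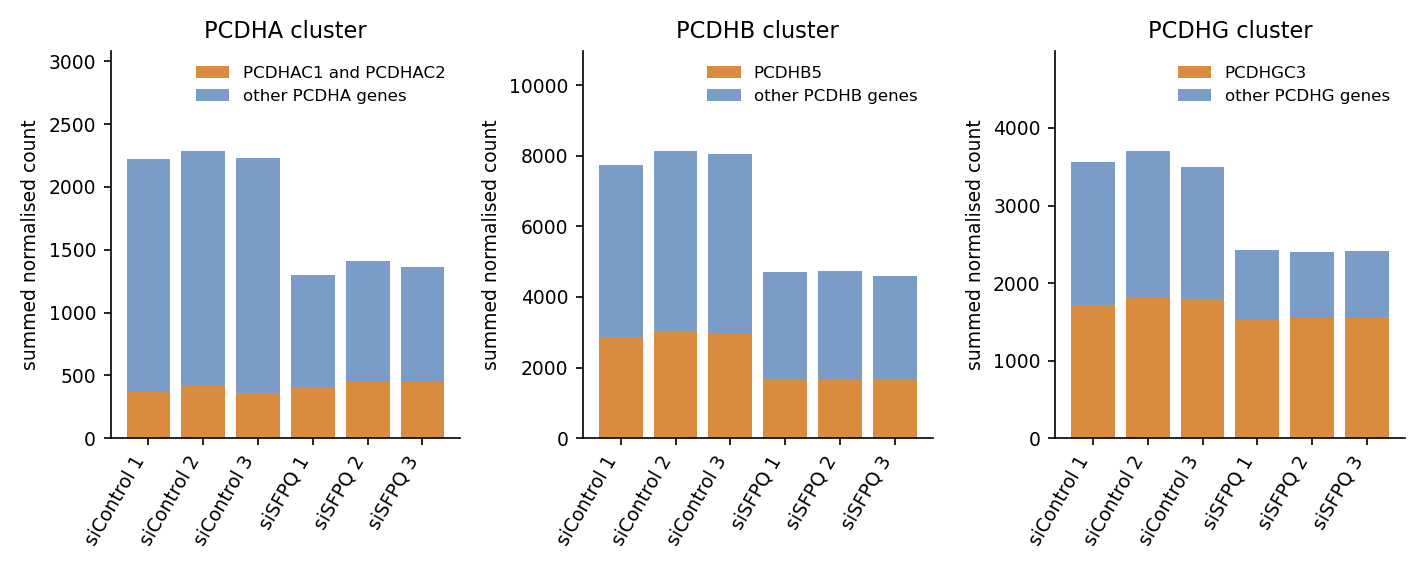
Summed normalised counts of the PCDHA, PCDHB and PCDHG clusters in each of the 6 libraries, as bars from 0, with the C-type genes PCDHAC1 and PCDHAC2, PCDHB5 and the C-type gene PCDHGC3 in orange and the other genes of each cluster in blue. The blue parts shrink in siSFPQ in all 3 clusters, the orange part shrinks clearly for PCDHB5, and it stays close to the control for PCDHAC1 with PCDHAC2 and for PCDHGC3.

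Genes of a cluster also resemble each other in sequence, which limits how reads are told apart. Of the 150-base stretches of all its exons, 17.9% in PCDHB10 and 17.0% in PCDHB8 were found in another gene of the same cluster too. For PCDHA7, PCDHGB4 and PCDHGB5, only stretches in the exonic bases that are the gene's own were compared, without the constant exons. Of these, 15.98%, 14.8% and 13.4% were found in another gene of the cluster. The counts of these 5 genes are therefore less certain. For 31 of the 89 genes, CDH2, CDH12, CDH13, PCDH7, PCDH17 and PCDHB5 among them, an annotated gene on the opposite strand overlaps an exon, and since the strand setting of the counting is not given in the sources used here, reads of the pair may not be separated.

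Members of the family range from 2.8 kb (PCDHB8) to 1825 kb (PCDH15) in span from start to end, introns included. Over 500 kb, 5 of 8 genes were lower and 3 were called lower, with a median log2 fold change of -1.43, while among all 308 protein-coding genes of that span tested the median was -1.37 and 43.8% were called lower. Between 100 and 500 kb, the median was -0.996 for 39 genes and 17.9% were called lower, beside -0.30 and 14.2% for all 3116 protein-coding genes. Outside the clusters, 12 genes of this span had a median of -0.74, with 5 called lower (41.7%) and 1 called higher. Between 20 and 100 kb, the medians were -0.01 for 18 genes and 0.02 for 7028. The 9 genes of this span outside the clusters had a median of 0.76, with 5 higher and 1 lower. Of these 9, 2 were called higher (22.2%) and 1 called lower (11.1%), beside 2.89% and 2.12% of all protein-coding genes of this span. Under 20 kb, 13 of 19 genes were lower, with a median of -0.64, beside 0.09 and 19.0% lower for all 6025 protein-coding genes, and 16 of these 19 were PCDHB genes. Of the other genes over 500 kb, the delta-1 protocadherins PCDH9 (928 kb) and PCDH11X (844 kb) were higher. PCDH11Y, at 0 to 5 counts, did not pass, with a log2 fold change of -1.14 ± 1.37 (SE). PCDH7, also of the delta-1 class, spans 426 kb. PCDH17, with the largest fall, spans 97.6 kb. The part of gene span in these results was not tested.

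Genes that work with cadherins were followed in a list of 75, of which 70 were tested, 36 were lower and 15 higher, and 7 and 3 were called. The share that was higher, and called higher, was near that of all genes tested (22.4% and 5.54%). The share that was lower, and called lower, was above that of all genes tested (22.1% and 4.77%). The counts of the short lists below are given as a description. Among the 14 catenins and plaque proteins, 7 were lower and 4 higher. CTNNB1 (beta-catenin) averaged 21128 ± 355 and 21005 ± 247 normalised counts (log2 fold change -0.01 ± 0.03, adjusted p = 0.877), and CTNNA1 (alpha-catenin), which links it to actin, averaged 17507 ± 379 and 17266 ± 277 (-0.02 ± 0.04, adjusted p = 0.696). CTNND1 (p120-catenin), which keeps cadherins at the surface, was lower (-0.67 ± 0.11, adjusted p = 6.21e-06), and JUP (plakoglobin), a plaque protein of adherens junctions and desmosomes, was called higher, from 1412 ± 54 to 4119 ± 134 normalised counts (1.54 ± 0.05, adjusted p = 4.77e-24). PKP4, a relative of p120-catenin, had 4755, 4776 and 4772 counts in siControl and 586, 688 and 654 in siSFPQ, without overlap (-2.90 ± 0.05, adjusted p = 2.26e-30). CTNND2, the neural delta-catenin, fell from 238 ± 20.5 to 28.9 ± 5.3 normalised counts (-3.03 ± 0.17, adjusted p = 3.05e-16). Below 1 CPM, CTNNA2 and CTNNA3 were called lower and PKP1 called higher. The 4 neuronal markers summed to 18.4 to 20.4 CPM in siControl and 5.28 to 5.99 in siSFPQ. SNAP25, SYT1 and RBFOX3 had lower levels in siSFPQ, and STMN2 had higher ones, at 0.241 to 0.657 against 1.07 to 1.38 CPM. The markers' part in the falls of CTNND2 and the neuronal cadherins was not tested.

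Elsewhere in the cadherin superfamily, 8 of 18 genes were lower and 5 higher. The calsyntenin CLSTN2 was called lower, from 665 ± 87 to 192 ± 29 normalised counts (-1.79 ± 0.11, adjusted p = 9.95e-16), and FAT2 and CDHR4, both under 1 CPM, were called lower and higher. Of 3 desmosomal cadherins tested, 1 was higher, and of 5 repressors of cadherin transcription, 3 were lower. Among 8 partners of protocadherin tails, 4 were lower and 3 higher, and PTK2B, a kinase that the tails of PCDHA and PCDHG proteins bind, was called lower, from 414 ± 46 to 133 ± 15 normalised counts (-1.64 ± 0.12, adjusted p = 1.08e-13). Of 7 genes for the proteases that cleave cadherins, 5 were lower and 1 higher. Of 15 regulators of the clustered promoters, 9 were lower and 1 higher, none of them past the fold threshold. CTCF, which binds these promoters, had 6213, 6147 and 5811 counts in siControl and 5236, 5604 and 5589 in siSFPQ, with no overlap and a log2 fold change of -0.15 ± 0.04 (adjusted p = 0.0017).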

How the data were processed

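PolyA RNA was turned into libraries with a kit that keeps strand, and read from both ends (150 bases). The authors aligned the reads with STAR 2.7.9a to Ensembl GRCh38 and deposited raw counts of reads per gene, without normalization. The strand setting of the counting is not given in the sources used here. The submitters' processing notes also name FastQC and DESeq2. The members and the gene lists were chosen with earlier results of these data known.

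Groups and replicate numbers came from the sample labels, and all columns of the count table were used. The quasi-likelihood test of edgeR 4.0.16 (R 4.3.3, TMM normalization, no covariates) was applied to genes with at least 10 counts in total, and p-values were adjusted over all 29022 of them (Benjamini-Hochberg). Every p given is such an adjusted p unless DESeq2 (1.42.0) is named. SE were derived from the F statistic and the log2 fold change, and 95% intervals from the SE. Normalised counts are counts divided by the effective library size and rescaled to the geometric mean of these sizes. Totals ranged from 43469321 to 47119203 counts. Replicate libraries differed by more than sampling noise. Symbols, spans and exons come from GENCODE release 44 (GRCh38), which matched 99.67% of the gene identifiers. The test script was tested on simulated counts. A list of markers of another cell type is not reported here.

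Genes named with values are those with a mean of at least 1 CPM or called, with counts in every library for those of at least 10 CPM or called. CDH5, below 1 CPM and not called, was given values after these were seen. Other values per library, the motifs and the remaining partner genes were chosen after their values were seen. Alternatives were other count filters, RLE or library size alone as normalization, DESeq2, a block for the replicate number, a test of protein-coding genes alone, a fold threshold of 1, other gene lengths, and each library left out in turn.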

Additional observations from a re-analysis of the deposited data

How the results depend on the processing

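No member named with values reversed direction under the alternatives run. Of the 57 named members, 48 stayed on the same side of the adjusted p threshold throughout, and 15 of 740 values were no longer past it and 4 newly past it. With a log2 fold change threshold of 1, 5 members were called higher and 29 lower. The count of PCDHA genes that were higher went from 0 to 1 with library size alone as normalization, and that of the other CDH genes from 1 to 0 with DESeq2, the genes being PCDHAC1 and CDH26. Among 10 further members past the test below 1 CPM, CDH5, PCDH12, PCDHB3, PCDHB7 and PCDHGA7 lost it under at least 1 alternative. Leaving out 1 library at a time gave 2 to 3 members called higher, 9 to 15 called lower, 8 to 10 higher and 43 to 47 lower. By group, these fits gave 0 to 1 PCDHA genes higher (1 without siSFPQ replicate 1) and 0 to 1 other CDH genes higher (0 without siControl replicate 2 or 3, or siSFPQ replicate 1 or 2). The PCDHB genes lower numbered 9 to 12, the PCDHG genes 14 to 15 and the classical cadherins 7 to 8.

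The labels do not say whether the same replicate number pairs the samples. Deviations from the group means correlated at -0.03, 0.07 and 0.04 between libraries of the same number, over 15641 genes. The siControl replicates 2 and 3 were closest to the siSFPQ library of their own number, and siControl replicate 1 to siSFPQ replicate 3. Such values cannot decide whether the cultures were paired. With the replicate block, 3 members were called higher and 12 lower, and 11 were higher and 47 lower. The scaling moved the median of all genes by at most 0.06. Per-kilobase levels depend on the length used: the PCDHA share of the summed level in siControl was 8.34% and became 5.07% with all exonic bases as the length, because the constant exons then count for every gene. A gene at 0 counts could be present at up to 0.069 CPM.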
